A study of Mus musculus with 8 samples.

Results

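The carriers described here are the membrane proteins that move sugars, amino acids and monocarboxylates such as lactate into and out of cells. They were measured as polyadenylated RNA in mouse haematopoietic stem cells, the marrow cells that maintain themselves and form all blood cells. The members were every row whose symbol belongs to the solute carrier (Slc) families 1, 2, 3, 5, 6, 7, 16, 36, 38 or 43. The rule used symbols only and no measured value. It found 102 rows of the 38172 in the deposited table. Of these, 2 are carriers by name only, a pseudogene (Slc2a4rg-ps) and the neighbour of a carrier on the opposite strand (Slc7a6os), which leaves 100. A further row joins Slc5a3 with the mitochondrial ribosomal protein gene Mrps6, and its value cannot be divided between them.

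The cells came from wild-type C57BL/6 mice of 4 months (young) or 24 months (old), and the labels name no treatment of the animals. They had been sorted fresh as side population cells that are Kit+, Sca-1+, lineage- and CD150+. Each age had biological replicates numbered 13 and 14, and each replicate was sequenced as 2 technical libraries, which were averaged, so n = 2 for each age. The labels do not say whether a replicate was 1 mouse or a pool, so the tests measure the spread between these samples only. In sorted bulk samples, fewer cells of a type and less RNA per cell cannot be told apart.

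A library held an estimated 22.3 M to 66.5 M reads summed over genes, from its scaled values and a scaling factor estimated from them. The scaling by the authors brought library sums to 40.7 M to 44.2 M. The values below are these scaled values per gene. FPKM divides them by gene length and is the scale used to compare the levels of carriers and their partners. Marker lists were summed, and their top members picked, by scaled value, which is not divided by gene length. Of the 10 stem cell markers examined, all were detected at both ages. Kit, the stem cell factor receptor used in the sort, was at 56382 and 54958.5 (young) and 57824 and 63949.5 (old). Slamf1, the gene of the sort marker CD150, was at 1597 and 1735.5 (young) and 3175 and 3083 (old). It rose by the age test below (log2 change 0.91; limma adjusted p = 0.0226).

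Sugars enter cells through the facilitative Slc2 carriers or the sodium-coupled Slc5 carriers. Amino acids are moved by several families that differ in their coupling to sodium, protons or a counter-amino acid. The Slc7 light chains reach the cell surface only when paired with an Slc3 heavy chain, and several Slc16 lactate carriers need the chaperone basigin (Bsg) or embigin (Emb). Stem cells at rest in the marrow are known for low mitochondrial activity and for reliance on glycolysis, which makes glucose uptake and lactate exchange part of their usual description.

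Among the carriers, 3 passed the age test. Slc1a1, which carries glutamate, aspartate and cysteine, and Slc16a12, a creatine carrier of the monocarboxylate family, were higher in old cells. Slc38a5, a sodium-coupled carrier of glutamine, asparagine and histidine, was lower. The stretches of 250 bases upstream of the RefSeq start of these 3 genes are shown because they are the members that passed. The build is GRCm38.p6, bases read 5′ to 3′ on the gene's strand, and capitals mark CACGTG, the E-box read by Myc, Usf and Tfe factors. The stretches lie at chr19:28834885-28835134 on the plus strand, chr19:34747329-34747578 on the minus strand and chrX:8271131-8271380 on the plus strand.
Slc1a1: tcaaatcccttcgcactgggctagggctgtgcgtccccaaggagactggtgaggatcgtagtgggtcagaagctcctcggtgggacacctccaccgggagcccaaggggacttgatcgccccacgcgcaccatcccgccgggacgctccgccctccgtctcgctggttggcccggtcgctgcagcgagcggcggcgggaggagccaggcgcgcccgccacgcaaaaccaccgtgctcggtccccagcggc
Slc16a12: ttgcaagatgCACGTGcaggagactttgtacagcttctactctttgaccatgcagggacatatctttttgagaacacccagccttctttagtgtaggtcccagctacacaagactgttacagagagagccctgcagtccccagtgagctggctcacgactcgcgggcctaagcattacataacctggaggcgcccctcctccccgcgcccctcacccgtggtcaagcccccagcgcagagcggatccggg
Slc38a5: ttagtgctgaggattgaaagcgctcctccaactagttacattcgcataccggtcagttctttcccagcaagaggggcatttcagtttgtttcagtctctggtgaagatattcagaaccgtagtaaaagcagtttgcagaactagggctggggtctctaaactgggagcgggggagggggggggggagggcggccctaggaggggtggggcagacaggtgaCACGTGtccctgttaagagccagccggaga

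The Slc1a1 stretch was rich in G and C (70.4%), against 57.6% for Slc16a12, 55.2% for Slc38a5 and a median of 52.4% over all RefSeq stretches of this length. It held none of the motifs searched. Counted from the start, the E-box lay at -240 to -235 in Slc16a12 and at -30 to -25 in Slc38a5, so a gene that was higher and one that was lower both carried it. RefSeq stretches were found for 73 of the 102 carrier rows, 46 of them among the rows tested below. Over these 46 genes, with some having more than 1 start, CACGTG on either strand lay in 8 of 59 stretches (13.6%), against 6.02% of all 32851. ACGTG, the core read by hypoxia-inducible factors, which CACGTG contains, lay in 15 of 59 (25.4%) against 16.6%. TGATGNAA, the form read by ATF4 with C/EBP partners, lay in 3 of 59 (5.08%) against 3.45%. The GATA forms AGATAA or TGATAA lay in 5 of 59 (8.47%) against 16.6%. These are matches of letters and not tested sites.

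Of the 102 rows, 66 were at 10 or more in 2 or more of the 4 replicates and entered the age test together with all other genes that did so, 18318 in all. The 36 left out were at 18 or less in every replicate. Of those, 8 had no read in any library: Slc5a4a, Slc6a5, Slc6a11, Slc6a14, Slc7a9, Slc7a12, Slc7a15 and Slc16a14. A count of 0 in an estimated 330.7 M reads over the 8 libraries allows up to 0.0091 reads per M reads, counting error only. Slc2a4 passed the filter only through the young replicates and Slc38a8 only through the old. The direction of their changes is thus tied to the filter, and both remain in the counts below.

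The age test was limma on log2(value + 0.5), with Benjamini-Hochberg adjustment over all 18318 genes and a threshold of 0.05. It called 2 of 66 carriers higher in old cells, against 2.01% of all tested genes, and 1 lower, against 0.540%. With so few calls these shares lie near the background. At an unadjusted limma p under 0.05 there were 16 of 66 carriers, against 14.0% of all genes. Both old replicates lay above both young ones in 17 carriers (24.7% of all genes) and below them in 13 (17.4% of all genes). The median log2 change of the 66 carriers was -0.01, with 32 above 0 and 34 below. That of all tested genes was 0.04, with 10349 above 0 and 7969 below. For 50 of the 66, the change was within 0.5 on the log2 scale in either direction.

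**Figure D1:**
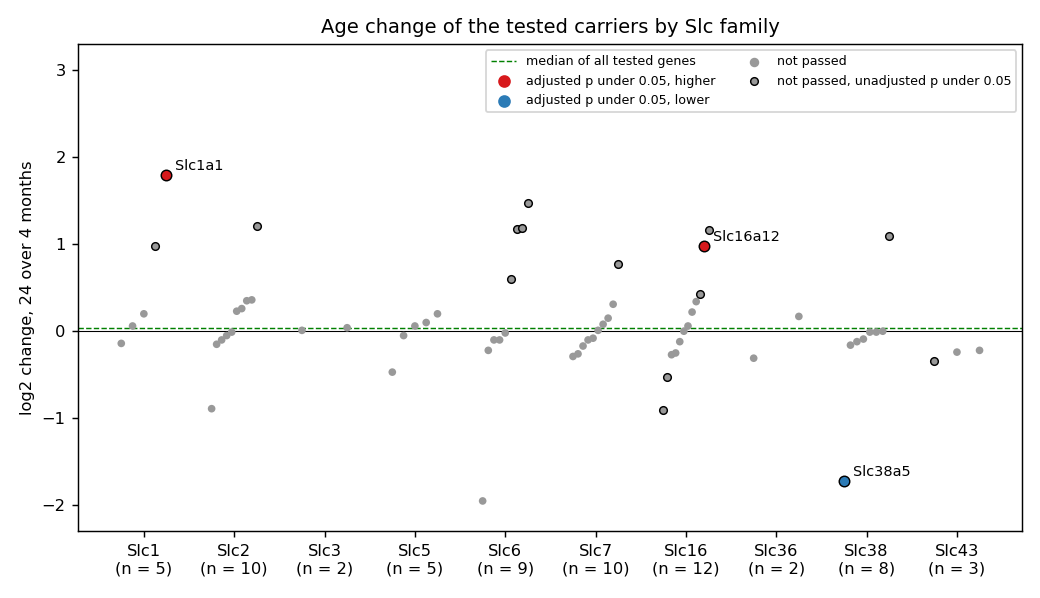
Log2 change from 4 to 24 months (y axis, fitted on log2 of the scaled value + 0.5) of the 66 tested carriers, 1 point each, by Slc family. Red and blue points passed the adjusted threshold, black edges mark an unadjusted limma p under 0.05, and the dashed line is the median of all tested genes at 0.04. Most points lie within 0.5 of 0, and the 3 that passed are Slc1a1, Slc16a12 and Slc38a5.

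Slc1a1 lies at chr19:28909656-28988450 on the plus strand of mm9, the build of the deposited files. Its scaled value was 29 and 25 (young) and 96.5 and 92.5 (old). Both old replicates were well above both young ones, and replicates of an age lay close together. The log2 change was 1.79 ± 0.29 (SE, n = 2 for each age; limma adjusted p = 0.0295), with a 95% interval from 1.10 to 2.49. It was a rare transcript at both ages, with a mean of 0.146 FPKM in young and 0.511 in old cells. A library held an estimated 15 to 101 reads of it. Without 1 replicate the change stayed between 1.69 and 1.90 and did not pass. The limma adjusted p was 0.0698 without young 13, 0.128 without young 14, 0.146 without old 13 and 0.261 without old 14.

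Slc16a12 lies at chr19:34742896-34821601 on the minus strand. It read 678.5 and 633 (young) and 1116 and 1492.5 (old). The old values did not overlap the young, and the old replicates differed from each other by more than the young did. The log2 change was 0.98 ± 0.19 (SE; limma adjusted p = 0.0495; interval 0.53 to 1.42), and the mean FPKM went from 3.40 to 6.75. Without young 13 the limma adjusted p was 0.15, without young 14 it was 0.282, without old 13 it was 0.11 and without old 14 it was 0.262, with changes between 0.77 and 1.19.

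Slc38a5 lies at chrX:7848518-7857302 on the plus strand. Its value was 407 and 401 (young) and 161 and 93 (old). The young replicates were nearly equal, both old replicates lay below them, and old 14 was the lower. The change was -1.72 ± 0.29 on the log2 scale (SE; limma adjusted p = 0.0322; interval -2.41 to -1.03), from 4.40 to 1.38 FPKM. Without young 13 the limma adjusted p was 0.0944, without young 14 it was 0.111, without old 13 it was 0.0948 and without old 14 it was 0.184, with changes between -2.11 and -1.32.

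Most erythroid markers had a change of the same sign as Slc38a5, 12 of the 13 tested, against 7969 of all 18318 genes. Of the 13 markers, 6 fell with age by the same test, against 0.540% of all tested genes. Among the 6 were Klf1, Rhag, Ermap, Slc4a1 and Car1, and their limma adjusted p ranged from 0.0128 to 0.0369. The erythroid transcription factor Klf1 was at 862.5 and 820 (young) and 388.5 and 284 (old). None of the markers was at 0. Their summed value was 57367 and 60773 (young) and 51873 and 59325 (old), and Car2 made up most of it. Their part in the Slc38a5 difference was not tested.

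**Figure D2:**
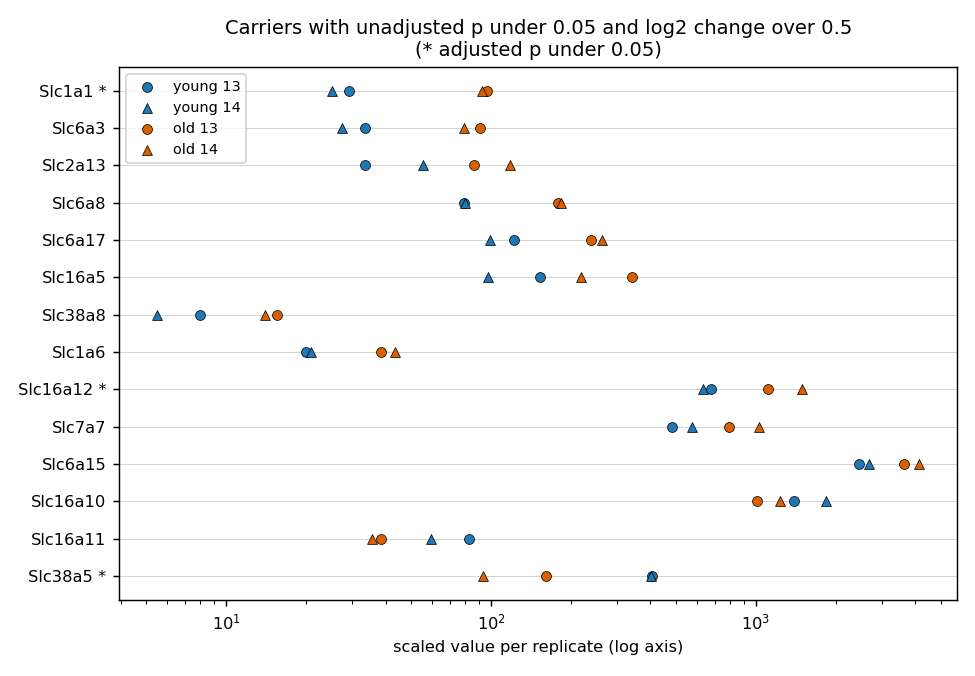
Scaled value per replicate (x axis, log scale) of the 14 carriers with an unadjusted limma p under 0.05 and a log2 change over 0.5 in either direction, with 1 point per replicate, blue for 4 months and orange for 24 months, circles for replicates 13 and triangles for 14. Asterisks mark the 3 that passed the adjusted threshold. The genes were chosen by p from these same values, and within each gene the colours do not overlap. Slc38a8, which passed the filter only through the old replicates, is among them.

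The Slc6 family moves amino acids, creatine, taurine and neurotransmitters with sodium and chloride, and 9 of its 19 rows were tested. None passed. Of the 9, 4 were above 0 and 5 below, with a median of -0.02. An unadjusted limma p under 0.05 was reached by 4, against 14.0% of all tested genes, and these 4 were higher in old cells. Slc6a8, the main creatine importer, was at 79 and 79.5 (young) and 179 and 184.5 (old). The groups were far apart and the change was 1.19 ± 0.23, but the limma adjusted p of 0.0529 missed the threshold. Slc6a17, which loads neutral amino acids into vesicles, was at 122 and 99 against 238.5 and 262.5 (log2 change 1.18; limma adjusted p = 0.0536). Slc6a3, the dopamine carrier, was at 33.5 and 27.5 against 91 and 79 (1.47; limma adjusted p = 0.0623). All of these were below 1 FPKM in every replicate.

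Slc6a15, which takes up branched-chain amino acids and proline, was the most abundant of the 4, at 13.5 and 14.7 FPKM (young) and 19.9 and 22.8 FPKM (old). Its scaled value went from 2459 and 2669.5 to 3619 and 4142.5, without overlap (log2 change 0.60; limma adjusted p = 0.105). The taurine carrier Slc6a6, the family's most abundant row, gave 26.5 and 27.2 FPKM (young) and 25.8 and 27.1 (old). It thus differed between ages by no more than between replicates.

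The glutamate and neutral amino acid family Slc1 had 7 rows, 5 of them tested, with 1 rise and a median log2 change of 0.20. Slc1a5, a glutamine exchanger, held 95.7% of the family's FPKM. It was at 56.6 and 46.3 FPKM (young) and 48.6 and 44.5 (old), which overlap. Slc1a6, a glutamate carrier best known from the cerebellum, was at 20 and 21 against 38.5 and 43.5 (log2 change 0.98; limma adjusted p = 0.234).

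Sugar carriers had no call. Of the 13 Slc2 rows, 10 were tested, 5 above 0 and 5 below, with a median of 0.11. Slc2a3, a high-affinity glucose carrier, held 56.6% of the family's FPKM. Its value was 7978 and 8252 (young) and 8935 and 11952.5 (old). Slc2a1, the widely expressed basal glucose carrier, was at 1871.5 and 1818.5 against 1993 and 2816. Both carriers were highest in old 14, and the lower old replicate exceeded the higher young one by less than the old replicates differed (log2 changes 0.35 and 0.36; limma adjusted p = 0.477 and 0.487).

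Slc2a13, a proton-coupled myo-inositol carrier, had the largest change of the family, from 33.5 and 55.5 to 86 and 118 (log2 change 1.21; limma adjusted p = 0.165). The insulin-regulated glucose carrier Slc2a4 was close to the limit of the filter, at 13.5 and 10.5 against 7 and 5.5 (-0.89; limma adjusted p = 0.473). It passed the filter only through the young replicates. The sodium-coupled Slc5 family had 5 of 13 rows tested and none called, and its most abundant row was the multivitamin carrier Slc5a6 at 4.19 FPKM. Slc5a9, a mannose and glucose carrier, was at 14.5 and 13 against 10 and 9.5, all old values lower (-0.47; limma adjusted p = 0.704). Slc5a11, another myo-inositol carrier, overlapped between the ages at 96 and 74 against 84 and 97.5. The joint row of the myo-inositol carrier Slc5a3 and Mrps6 was at 2026.5 and 1748 (young) and 2135.5 and 2184 (old) (0.20; limma adjusted p = 0.647). The glucose carriers of gut (Slc5a1) and kidney (Slc5a2) lay far apart, at no more than 0.00766 FPKM for Slc5a1 and between 3.22 and 3.93 FPKM for Slc5a2. Slc5a2 and Slc5a6 each overlap a gene on the opposite strand, and no source used here says whether counting used the strand.

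The heavy chain Slc3a2, which carries most light chains to the surface, gave 32.6 and 36.3 FPKM (young) and 32.0 and 39.2 (old). The ages overlapped (log2 change 0.04; limma adjusted p = 0.948). The FPKM of the 6 light chains that pair with it summed to 52.1 and 56.6 (young) and 47.4 and 57.9 (old). Their shares of this sum depend on one another and were not tested for a difference between the ages. Slc7a5, which exchanges leucine and other large neutral amino acids, made up 49.7% and 48.7% of the sum in young cells and 40.7% and 43% in old cells. Slc7a7, which exchanges cationic against neutral amino acids, made up 7.45% and 8.10% (young) and 13.4% and 14.2% (old). Neither share overlapped between the ages, and nor did those of Slc7a6 and Slc7a8 given below.

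The scaled values behind these shares did not pass the test. Slc7a7 was at 484 and 572 (young) and 789 and 1025 (old), all old values above all young (log2 change 0.77; limma adjusted p = 0.116). It overlaps Oxa1l on the opposite strand, whose own value was 3811 and 3550 (young) and 3327.5 and 3937.5 (old). Slc7a5 was at 4542.5 and 4833 against 3372 and 4364.5, all old values below the young (-0.29; limma adjusted p = 0.54).

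Slc7a6, the closest relative of Slc7a7 in function, held 29.4% and 29.8% of the sum in young and 33.6% and 31.4% in old cells. Slc7a8, which resembles Slc7a5 in what it carries, held 13.1% and 12.9% (young) and 11.8% and 10.8% (old). The cystine and glutamate exchanger Slc7a11 stayed under 0.5% in every replicate. Slc7a10, a light chain that carries small neutral amino acids with Slc3a2, was at 3 or less in scaled value. The kidney pair was split, since the heavy chain Slc3a1 was detected at 1.49 to 1.71 FPKM while its light chain Slc7a9 had no read. Slc3a1 overlaps Prepl on the opposite strand, which was at 1927.5 to 1992. Outside these pairs, Slc7a4 was at 1398 and 1184.5 against 1503 and 1704.5, all old values higher (log2 change 0.31; limma adjusted p = 0.468).

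**Figure D3:**
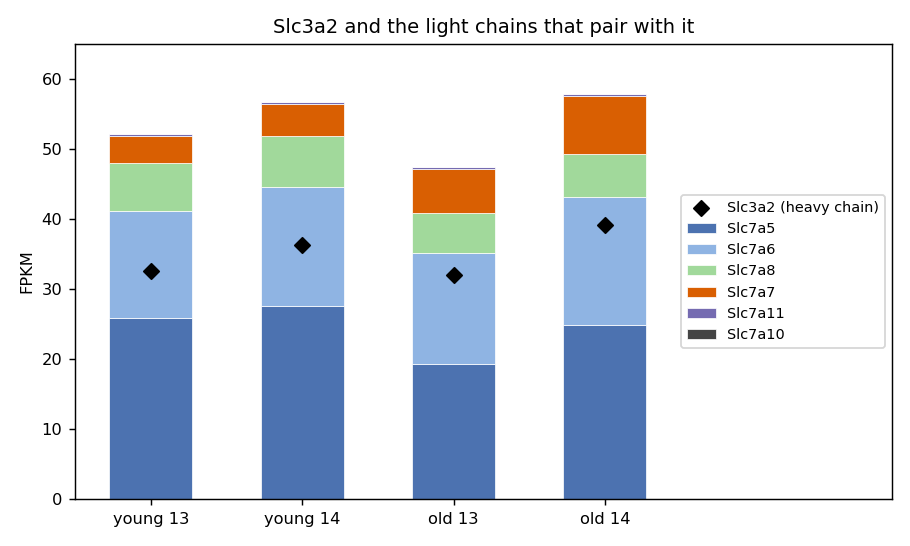
FPKM (y axis) of the heavy chain Slc3a2 (diamonds) and of its 6 light chains (stacked bars from 0) in each of the 4 replicates. The bars sum to between 47.4 and 57.9 FPKM, and the Slc7a7 segment is 7.45% and 8.10% of the bar in young and 13.4% and 14.2% in old cells.

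Among the monocarboxylate carriers, 12 of 14 rows were tested, 7 above 0 and 5 below, with a median of 0.03. An unadjusted limma p under 0.05 was reached by 5, the 1 call above among them, against 14.0% of all tested genes. The lactate and pyruvate carrier Slc16a1 was the most abundant, at 16.1 and 18.6 FPKM (young) and 15.9 and 20.4 (old). It made up 71.4% and 71.2% of the FPKM of the 4 lactate carriers (Slc16a1, Slc16a3, Slc16a7 and Slc16a8) in young cells and 75.6% and 75.3% in old cells. Its own value overlapped between the ages (log2 change 0.06; limma adjusted p = 0.93).

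The lactate exporter Slc16a3 was at 2.72 and 3.58 FPKM (young) and 2.12 and 3.26 (old), which overlap. The high-affinity pyruvate carrier Slc16a7 was at 3.63 and 3.89 against 2.86 and 3.38 FPKM, all old values lower (log2 change -0.27; limma adjusted p = 0.618). The chaperone Bsg far exceeded both carriers, at 99.2 and 98.0 FPKM (young) and 95.9 and 118 (old). The other chaperone, Emb, was higher in both replicates numbered 14 and overlapped between the ages, at 2974 and 4791.5 (young) and 3122 and 5086.5 (old).

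The other Slc16 rows went both ways. Slc16a5, a carrier of drugs and other organic anions, was at 153 and 97.5 against 341.5 and 219 (log2 change 1.16; limma adjusted p = 0.148). Slc16a10, which carries aromatic amino acids, was lower in both old replicates, at 1396 and 1846.5 against 1006 and 1229 (-0.53; limma adjusted p = 0.27). Slc16a11 was at 82.5 and 59.5 against 38.5 and 35.5 (-0.91; limma adjusted p = 0.243).

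The Slc38 family of glutamine and small neutral amino acid carriers had the highest summed level, 148 and 149 FPKM in young and 138 in each old replicate. Its 8 tested rows had 1 fall, Slc38a5, and a median of -0.05. Slc38a2, which responds to amino acid shortage, was the most abundant carrier of all, at 65.1 and 70.7 FPKM (young) and 60.7 and 66.8 (old). Slc38a1, a close relative that also takes up glutamine, was at 28.3 and 29.2 against 28.1 and 29.1 FPKM. Slc38a9, the lysosomal arginine sensor of the mTORC1 pathway, was at 2632.5 and 2401.5 against 2506.5 and 2006.5. All 3 overlapped between the ages. Slc38a1 overlaps an unnamed gene model on the opposite strand, which was at 6567.5 to 7194. Slc38a8 was near the filter limit, which it passed only through the old replicates, at 8 and 5.5 against 15.5 and 14 (log2 change 1.09; limma adjusted p = 0.333).

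In Slc43, all 3 rows were lower in both old replicates than in both young, against 17.4% of all tested genes, and none passed. Slc43a3, a purine nucleobase carrier, was at 27.4 and 28.6 FPKM (young) and 22.0 and 22.4 (old) (log2 change -0.34; limma adjusted p = 0.317). The branched-chain amino acid carriers Slc43a1 (-0.24; limma adjusted p = 0.535) and Slc43a2 (-0.22; limma adjusted p = 0.614) lay in the same direction. In the proton-coupled Slc36 family, the lysosomal carrier Slc36a1 was at 2112 and 1990 against 1770 and 1537.5 (-0.31; limma adjusted p = 0.423). An unnamed gene model that overlaps Slc36a1 on the opposite strand was also lower in both old replicates, at 1322 and 1233 against 1110.5 and 986. Slc36a4 overlapped between the ages.

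**Figure D4:**
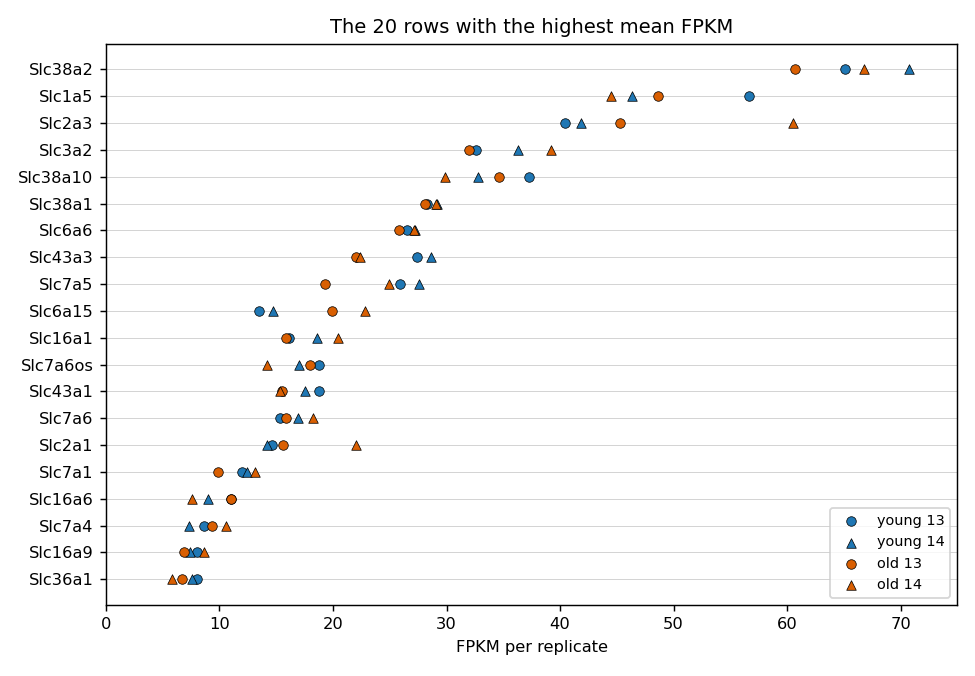
FPKM per replicate (x axis, from 0) of the 20 carrier rows with the highest mean FPKM, with 1 point per replicate, blue for 4 months and orange for 24 months, circles for replicates 13 and triangles for 14. Slc38a2 is highest at a mean of 65.8 FPKM, and the ages do not separate for most rows.

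Levels spanned a wide range. Over the 4 replicates, 47 of 102 rows averaged at least 1 FPKM and 16 at least 10. The order from the top was Slc38a2 (65.8 FPKM), Slc1a5 (49.0), Slc2a3 (47.0), Slc3a2 (35.0), Slc38a10 (33.7) and Slc38a1 (28.7). Over the 4 replicates together, the FPKM values of Slc1a5 and Slc2a3 overlapped, and so did those of Slc3a2 and Slc38a10. In young cells alone, Slc1a5 (56.6 and 46.3 FPKM) lay above Slc2a3 (40.4 and 41.8 FPKM). The median of the tested carriers was 4.18 FPKM, below the 6.49 of all tested genes, and 23 of 66 carriers lay above the latter.

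Replicates of one age agreed closely for most carriers. The median absolute log2 difference was 0.058 between technical libraries, 0.178 between the young replicates and 0.233 between the old. Of the 66 tested carriers, 2 differed by over 1 on the log2 scale between replicates of an age, and they did so at both ages. Among all 18318 tested genes, 850 did so in young and 827 in old cells. Slc2a6, a sugar carrier of lysosomes known from phagocytes, was at 13.5 and 80.5 (young) and 16.5 and 65 (old). It was high in both replicates numbered 14, as was the sum of the 14 granulocyte and monocyte markers, at 28756 and 81287.5 (young) and 29341.5 and 49616.5 (old). None of these markers was at 0 or passed the age test. Of the 14, 5 had an unadjusted limma p under 0.05, against 14.0% of all tested genes. The part of these markers in the Slc2a6 values was not tested. The one with the highest scaled value, the granule enzyme gene Mpo, was at 3598 and 27761.5 (young) and 4428 and 10021.5 (old). Slc6a20a, a proline carrier, went the other way, at 32 and 9.5 (young) and 14 and 1 (old).

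Lists of genes that work with the carriers were read against the same background, 2.01% of all tested genes higher and 0.540% lower. At an unadjusted limma p under 0.05 the background was 14.0%. In the mTORC1 amino acid sensing list, 0 of 31 tested genes passed, 2 had an unadjusted limma p under 0.05 and the median was 0.05. These were the GTPase Rragd, at 56 and 62.5 against 120.5 and 130 (limma adjusted p = 0.0988), and the leucine sensor relative Sesn1, at 5922.5 and 5802 against 7314 and 9587 (limma adjusted p = 0.227). Of the 32 targets of ATF4, the factor that answers amino acid shortage, 2 rose, 0 fell and 8 are carriers themselves. Nupr1, a stress-response chromatin protein, was at 595 and 368 against 2768 and 2519.5 (log2 change 2.50; limma adjusted p = 0.00452). Vldlr, a lipoprotein receptor, was at 2443 and 2593.5 against 4964.5 and 5059 (0.99; limma adjusted p = 0.0160). None of the 8 carriers on the list passed, and its median was 0.05.

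Enzymes on either side of the sugar and lactate carriers had 1 fall in 19 tested, and a median of 0.13. Pklr, the pyruvate kinase of liver and red cells, was at 982 and 1060.5 (young) and 434 and 266 (old) (log2 change -1.59; limma adjusted p = 0.0257). It fell, as did the 6 erythroid markers given above, whose part in it was not tested. Hk2, the hexokinase that traps glucose, was at 2914.5 and 2903 against 4221 and 4591.5 (0.60; limma adjusted p = 0.0839). The 21 tested enzymes of glutamine, leucine, glycine and creatine metabolism had 0 calls, 1 unadjusted limma p under 0.05 and a median of 0.02. That gene was Glul, glutamine synthetase, at 20590.5 and 23707 against 28682.5 and 40761 (limma adjusted p = 0.256). Next by p was Ckb, a creatine kinase, at 131 and 152 against 174.5 and 233.5 (limma adjusted p = 0.437). The 16 tested chaperones and surface regulators had 0 calls, 2 at an unadjusted limma p under 0.05 and a median of 0.10. These were Tbc1d1, which holds back Slc2a4 vesicles (-0.37; limma adjusted p = 0.3), and Arrdc4, an arrestin that lowers surface glucose carriers (0.46; limma adjusted p = 0.308).

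Markers of other cells that the sort could hold were also followed. Over all 18318 tested genes, 10349 were above 0 and 7969 below, 2.01% rose and 0.540% fell. An unadjusted limma p under 0.05 was reached by 14.0% of them. Of 7 tested megakaryocyte markers, 5 were above 0 and 2 below, and 1 passed, Vwf, which rose. Of 4 tested T and NK cell markers, 2 were above 0 and 2 below (median -0.45), 3 had an unadjusted limma p under 0.05, and Klrb1c rose. Of 6 endothelial markers, 2 were above 0 and 4 below (median -0.07), and Kdr rose. Tek, the one with the highest scaled value, was at 3537 and 3662.5 against 3751.5 and 3820.5. In the stem cell list, Procr and Slamf1 rose, and 10 of 10 were above 0. In the stroma list 3 of 10 fell (Col1a1, Col3a1 and Sparc), all 10 were below 0, and its summed value was 7195 and 7841 (young) and 3314 and 3097.5 (old). Its member with the highest scaled value, Cxcl12, overlapped between the ages at 2938 and 1299.5 against 1461 and 986. Of 7 tested B cell markers 0 passed and 1 had an unadjusted limma p under 0.05. The most abundant, Cd79b, was at 1033 and 1005.5 against 1066 and 1195. How far such cells contribute to the carrier values was not tested.

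The authors' deposited table gives its own age comparison, with an FDR for 94 carrier rows. It marks 9 of them as higher in old cells, against 6.00% of all rows with an FDR, and 5 as lower, against 5.82%. In the authors' deposited table the marked carriers include Slc16a12 (FDR 4.3e-12) and Slc38a5 (FDR 2.65e-23). For all 14 marked carriers the old replicates lay outside the young on the marked side. The marks were computed from these same libraries, so this order is not an independent check of them. The authors' deposited table marks Slc6a8 (log2 change 1.17) and Slc6a17 (1.15) as well. A further count in the authors' deposited table is that of 4 carriers with an FDR under 0.05 but no mark, with Slc1a1 (FDR 1.92e-09) among them.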

How the data were processed

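PolyA-selected RNA of sorted cells went into TruSeq libraries, per the labels' protocols. Per the submitters' processing notes, the build was mm9, and DESeq is named there without version or role. Aligner and read counter are not stated in the sources used. The deposited per-gene value named like a count is a score, because the authors scaled reads by 1 factor per library (0.617 to 1.839, estimated from the values) and rounded them. The deposited FPKM is that score times a constant per gene. The authors' table also holds deposited log2 fold changes and FDR values (adjusted p-values).

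Technical libraries were averaged, and log2(value + 0.5) was fitted with limma 3.58.1 under R 4.3.3, the single term being age, with a trended prior, two-sided tests and Benjamini-Hochberg adjustment, after a filter of 10 or more in 2 or more replicates. The pseudocount understates changes of low genes. Of all 18318 genes tested, 368 rose and 99 fell. Because the values are not raw counts, no count model was used. Promoter stretches come from RefSeq (GRCm38.p6), matched by symbol.

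The members, lists and naming rule were chosen with earlier results of these data known. Named carriers are those called, the 3 smallest p and the highest FPKM in each family, and the heavy chains and chaperones with their partners. In each gene list the called members and the 2 smallest p are named, and in each marker list the member with the highest scaled value. Slc2a1, Slc2a6, Slc5a1, Slc5a2, Slc6a15, Slc6a20a, Slc16a10, Slc38a1, Slc38a10 and the called markers fall outside it and were picked with their values in view. 1 carrier and 1 marker are not reported by name here. Alternatives covered the pseudocount, the filter, scaling, technical libraries, limma-voom, a replicate block and leaving out each replicate.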

Additional observations from a re-analysis of the deposited data

How the results depend on the processing

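The main limits are 2 replicates for each age and low read numbers for rare carriers such as Slc1a1. For that gene an estimated 15 to 101 reads stood behind a value. Carriers that rose numbered 2, against 1 with median-ratio scaling, 1 with quantile normalization, and 0 with no filter, with the lower-numbered or the higher-numbered technical libraries alone and with limma-voom. At an unadjusted limma p under 0.05 these last 4 held 19, 13, 14 and 15 carriers. Carriers that fell numbered 1, against 0 with no filter and 0 with the higher-numbered libraries. Leaving out 1 replicate gave 0 to 0 rises and 0 to 0 falls among carriers, with between 9 and 15 at an unadjusted limma p under 0.05. The lone replicate of an age is there assumed to vary like the others. Over all genes, the 368 rises became 0 with no filter (2943 genes at an unadjusted limma p under 0.05), 242 with the lower-numbered libraries and 0 to 201 without 1 replicate. The 99 falls became 0 with no filter, 51 and 52 with the lower-numbered and higher-numbered libraries and 0 to 62 without 1 replicate. The counts were 0 in both directions without old 13 (3664 genes at an unadjusted limma p under 0.05) or old 14 (1881).

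With a replicate block there were 11 rises and 4 falls among carriers, and 1698 and 1068 over all genes. Same-numbered samples deviated together (correlation 0.544 over 18318 genes), but nothing says that the number marks a shared animal or day. Over the 14 alternatives Slc1a1 was called in 6, Slc16a12 in 4 and Slc38a5 in 8, and each kept its sign in all 14. Their limma adjusted p ranged from 3.88e-05 to 0.261, 9.26e-05 to 0.282 and 2.52e-06 to 0.195. The split of carriers above and below 0 was 32 to 34, against 28 to 38 with median-ratio scaling and 26 to 40 with quantile normalization. It tipped the other way with the higher-numbered libraries (37 to 29), without young 13 (35 to 29) and without old 13 (38 to 26). In the other alternatives, carriers above 0 did not outnumber those below. All 3 Slc43 rows lay below 0 under each alternative. Both Slc3 rows lay above 0, both below it with median-ratio scaling, and 1 on each side with quantile normalization. The causes were not tested.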
